A study of Homo sapiens with 6 samples.

Results

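The RFX genes encode transcription factors, and chromatin accessibility around 6 of them (RFX1, RFX2, RFX3, RFX5, RFX6 and RFX7) was described in human beta cells before and after senescence. Of the 108542 accessible regions in the authors' deposited table, 53 were assigned to these genes, of which 11 were promoter regions and 42 were distal regions. Promoter regions were those that overlapped a window reaching 2 kb upstream and downstream of any start site of RFX transcripts annotated as protein-coding in GENCODE. A distal region lay elsewhere, and the protein-coding start site nearest to its midpoint belonged to an RFX gene and was within 100 kb. RFX6 had 18 regions, RFX2 had 14, RFX3 had 12, RFX1 had 4, RFX7 had 3 and RFX5 had 2. The rule itself uses position and no measured value.

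Accessibility was measured by ATAC-seq, in which a transposase cuts open DNA and leaves sequencing adapters there, in EndoC-βH3 cells. This beta cell line derives from human fetal pancreas and carries telomerase and the SV40 large T antigen as immortalising transgenes, together with a Cre recombinase that tamoxifen activates. The 3 senescent libraries came from cells given 4-hydroxytamoxifen for 3 weeks, which removes the transgenes, and the 3 non-senescent libraries from cells that still carried them. Each library was made from 100000 cells, and both groups are labelled wild type in genotype. Both groups are cultures of a single line, so the p-values measure the spread between libraries of that line, which may be technical, and drug exposure, loss of the transgenes and senescence cannot be told apart. For each region the table holds a mean signal, which is the normalised read count averaged over the 6 libraries, and a log2 fold change with its SE (standard error), and it holds 0 columns of single libraries. The table does not say which group is the numerator, and the senescent group was taken as such from the way the study labels its changes and from the value at the promoter of the proliferation gene MKI67 (-0.53 ± 0.10). Positive log2 fold changes then stand for higher accessibility in senescent cells. Group means were calculated from the mean signal and the fold change, and they are approximate.

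RFX proteins bind DNA through a winged-helix domain and recognise the X-box, an inverted repeat of GTTNCC and GGNAAC. RFX1, RFX2 and RFX3 control genes of the cilium, and RFX3 also takes part in the maturation of beta cells. RFX5 works with RFXANK and RFXAP on the promoters of MHC class II genes, which hold an X-box and a CCAAT element called the Y box. RFX6 directs the formation of islet cells in the embryo and maintains insulin secretion in adult beta cells, and RFX7 acts downstream of p53 on genes that restrain growth.

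The label of the cells was checked against promoters of marker genes. All 12 beta cell markers had a promoter region, with mean signals from 344 to 7894 and a median of 1055 at their strongest regions. All 4 alpha cell markers had one as well, at 53.4 to 1340, and so did all 3 delta and PP cell markers, at 143 to 478, so an open promoter was not particular to beta cells. No region lay at the promoters of PRSS1 (acinar cells), CFTR (ductal cells), VWF and CDH5 (endothelium), PTPRC and CD3E (leukocytes) or DCN and PDGFRB (fibroblasts and stellate cells). The remaining markers of those cell types did have promoter regions, with mean signals from 43.2 to 2101 for 3 of 4 acinar, from 131 to 1059 for 2 of 3 ductal, and of 117, 644 and 142 for 1 of 3 endothelial, leukocyte and stromal markers each. Several of these were as high as those of beta cell markers, and their part in the results was not tested.

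No call rests on sequence, and any part of the motifs marked below was not tested. The sequences of a few RFX regions described below are shown as read from the hg38 reference. The first is the middle of the most accessible distal region of RFX2, in which capitals mark the letters GTTGCC, one arm of the X-box, on either strand (GGCAAC on the plus strand).

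RFX2 at chr19:6066681-6066980, plus strand: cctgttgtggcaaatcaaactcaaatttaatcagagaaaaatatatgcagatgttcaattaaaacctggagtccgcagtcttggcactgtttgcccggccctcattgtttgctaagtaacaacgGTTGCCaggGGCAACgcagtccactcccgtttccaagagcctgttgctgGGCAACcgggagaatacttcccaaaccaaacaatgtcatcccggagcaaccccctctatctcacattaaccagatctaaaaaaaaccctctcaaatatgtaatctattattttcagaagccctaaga

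The next pair of sequences comes from 2 neighbouring regions in an RFX2 intron that moved in opposite directions. In the region that rose, capitals mark TAATTA, the core bound by PDX1 and other homeodomain factors, and TGANTCA, the AP-1 motif. In the region that fell, capitals mark CCAAT, the Y box, read on the minus strand.

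RFX2 at chr19:6087862-6088161, higher, plus strand: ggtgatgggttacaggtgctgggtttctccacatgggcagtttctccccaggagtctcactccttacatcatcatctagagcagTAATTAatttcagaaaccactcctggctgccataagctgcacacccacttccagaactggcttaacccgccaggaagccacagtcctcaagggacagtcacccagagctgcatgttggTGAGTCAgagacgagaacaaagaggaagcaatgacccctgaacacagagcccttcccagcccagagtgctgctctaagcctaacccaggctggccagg

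RFX2 at chr19:6087074-6087373, lower, plus strand: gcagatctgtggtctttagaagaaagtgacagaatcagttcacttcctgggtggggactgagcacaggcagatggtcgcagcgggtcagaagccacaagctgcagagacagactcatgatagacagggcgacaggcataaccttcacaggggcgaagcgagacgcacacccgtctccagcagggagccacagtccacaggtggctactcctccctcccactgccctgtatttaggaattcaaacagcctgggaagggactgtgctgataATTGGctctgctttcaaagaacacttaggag

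The last sequence comes from the strongest called region inside RFX6, which fell. Capitals mark TAATTA and CCAAT.

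RFX6 at chr6:116895736-116896035, lower, plus strand: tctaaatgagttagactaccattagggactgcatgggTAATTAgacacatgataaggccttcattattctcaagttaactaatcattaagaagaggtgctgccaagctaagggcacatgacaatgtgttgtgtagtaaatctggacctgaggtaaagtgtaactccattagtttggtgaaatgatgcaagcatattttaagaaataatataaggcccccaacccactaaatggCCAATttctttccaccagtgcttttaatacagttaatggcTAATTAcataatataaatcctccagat

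The first question was whether the promoters of the RFX genes opened or closed upon senescence. None of the 11 promoter regions passed an adjusted p-value under 0.05 together with a fold change over 1.5, the limits of the study. Over all 20094 promoter regions of the table, 3.56% were higher and 9.04% were lower by these limits. With the adjusted p-value alone, 1 RFX promoter region was higher and 3 were lower, while 10.2% of all promoter regions were higher and 34.7% were lower. Their median log2 fold change was -0.07, compared with -0.13 over all promoter regions. For 10 of the 11 (90.9%), the 95% interval of the fold change lay wholly inside a change of 1.5-fold, against 66.2% of all promoter regions. A larger change lay outside the intervals of those 10 in the deposited values, and these intervals do not cover the choice of normalisation. The p-values are the deposited two-sided Wald p-values of DESeq2, adjusted over all regions.

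The RFX1 promoter, chr19:14005755-14007238, was the most accessible RFX region, with a mean signal of 2954. Its calculated group means were 2986 in non-senescent and 2922 in senescent cells, a log2 fold change of -0.03 ± 0.05 (SE, n = 3 per group; adjusted p = 0.618 in the DESeq2 test). The interval ran from -0.12 to 0.06, the narrowest of the 11.

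RFX2 had 5 promoter regions, and they did not move together. The gene spans 206.4 kb and has 13 annotated start sites, and positions in it are given from the most upstream of them in the direction of transcription. The region over that upstream start site, chr19:6199023-6199955, went from a calculated mean of 863 to 642, a log2 fold change of -0.43 ± 0.08 (adjusted p = 2.3e-07 in the DESeq2 test). The region 88.7 kb downstream, chr19:6110391-6111209, with 8 start sites within 2 kb, which holds the start of the reference (MANE Select) transcript, went the other way. Its mean rose from 1284 to 1604, a log2 fold change of 0.32 ± 0.07 (adjusted p = 9.4e-06). It was the sole RFX promoter region that was higher by the adjusted p-value, and the rise was 1.25-fold, below the limit of the study. The weaker region 1.28 kb downstream of its edge, chr19:6108756-6109109, fell from 123 to 85.2, a log2 fold change of -0.52 ± 0.18 (adjusted p = 0.0134). This was the widest interval of the promoter regions, from -0.89 to -0.16, and the single one that reached past 1.5-fold.

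Further into RFX2, the promoter regions at 142.5 and 150.6 kb, each with 1 start site within 2 kb, had mean signals of 884 and 192. Their log2 fold changes were -0.07 ± 0.07 and -0.22 ± 0.14 (adjusted p = 0.491 and 0.214 in the DESeq2 test). Neither could be told from 0. By the adjusted p-value, accessibility at the start of the reference transcript of RFX2 was thus higher in senescent cells, while it was lower at the upstream start and in the flanking region at 90.6 kb.

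The RFX3 promoter, chr9:3525723-3527290, went from a calculated mean of 1074 to 916, a log2 fold change of -0.23 ± 0.07 (adjusted p = 0.00594 in the DESeq2 test). This fall of 1.17-fold was past the spread between libraries in the deposited values but within the fold limit. It was -0.11 with the trend on mean signal removed, -0.10 with that on GC content removed and -0.05 with both removed. The last of these is smaller than the SE. The RFX5 promoter, chr1:151346879-151347724, with the starts of 11 transcripts within 2 kb, had a mean signal of 1565 and a log2 fold change of -0.11 ± 0.06 (adjusted p = 0.138).

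The RFX6 promoter, chr6:116875792-116877987, lies over the only annotated start site of that gene and was the widest of the 53 regions, at 2195 bp. Its calculated means were 1618 and 1613, a log2 fold change of -0.00 ± 0.06 (adjusted p = 0.965 in the DESeq2 test) with an interval from -0.12 to 0.11. At the promoter of this islet regulator, a change of over 0.12 on the log2 scale in either direction lay outside the interval of the deposited values. That interval covers the spread between libraries and not the choice of normalisation. With the trend on mean signal removed the value itself was 0.117, and with both trends removed 0.125, past its upper end.

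RFX7 had 2 promoter regions. The region over its reference start, chr15:56243108-56244568, had a mean signal of 350 and a log2 fold change of 0.19 ± 0.11 (adjusted p = 0.141 in the DESeq2 test). It is also a promoter region of the neighbouring gene TEX9, and its reads cannot be divided between them. The region 1.12 kb upstream of the first RFX7 start, chr15:56246076-56246329, had a mean signal of 161 and a log2 fold change of 0.12 ± 0.15 (adjusted p = 0.555).

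**Figure D1:**
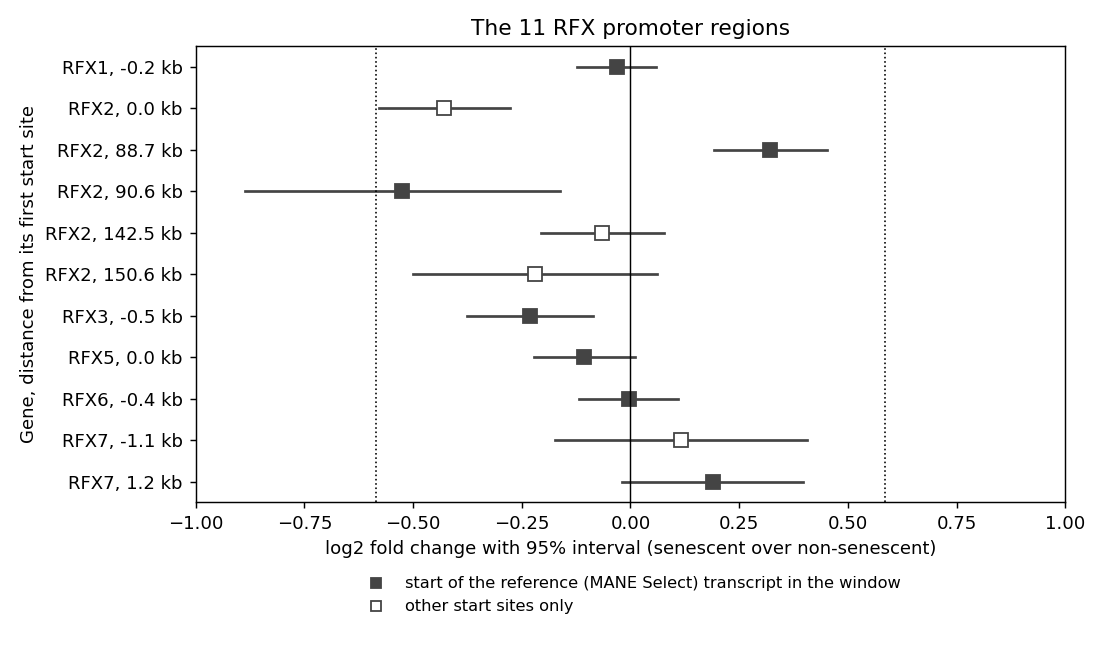
The log2 fold change of the 11 RFX promoter regions (horizontal axis, senescent over non-senescent) with its 95% interval as a line; each is named by gene and distance in kb from the first start site, filled squares overlap 2 kb around the start of the reference transcript, open squares other start sites, and dotted lines mark 1.5-fold. The RFX2 region at 88.7 kb lies at 0.32, between RFX2 regions at -0.43 and -0.52.

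The second question was how distal regions near these genes changed. Of the 42 distal regions, 2 (4.76%) were higher and 6 (14.3%) were lower in senescent cells by both limits. Over all 88448 distal regions, 18.1% were higher and 10.6% were lower. For the 53 RFX regions together the counts were the same 2 and 6, against 15.4% higher and 10.3% lower over the whole table. With the adjusted p-value alone, 3 RFX distal regions were higher and 12 were lower, against 23.4% and 18.3% of all distal regions. Their median log2 fold change was -0.07, while that of all distal regions was 0.08. Among the 55158 distal regions within 100 kb of a protein-coding start site, the limit that the RFX regions meet, 17.4% were higher and 10.9% were lower, with a median of 0.03. In a bulk culture, fewer cells with an open region and a less open region in each cell cannot be told apart.

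The distal regions were mostly intronic. By the place of their midpoints, 27 lay in introns, 13 between genes and 2 in exons, and 28 lay inside the RFX gene to which they were assigned. Of those 28, 1 was higher and 5 were lower. The share for distal regions inside genes over the whole table was not calculated, so no concentration of falls can be read from these counts. The mean signal of the distal regions ranged from 21.4 to 2170, and 34 of 42 reached 50 (81.0%, against 63.3% of all distal regions). For 18 of the 42 the 95% interval stayed inside 1.5-fold (42.9%, against 24.7% of all distal regions). At the others it reached past 1.5-fold in at least one direction.

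**Figure D2:**
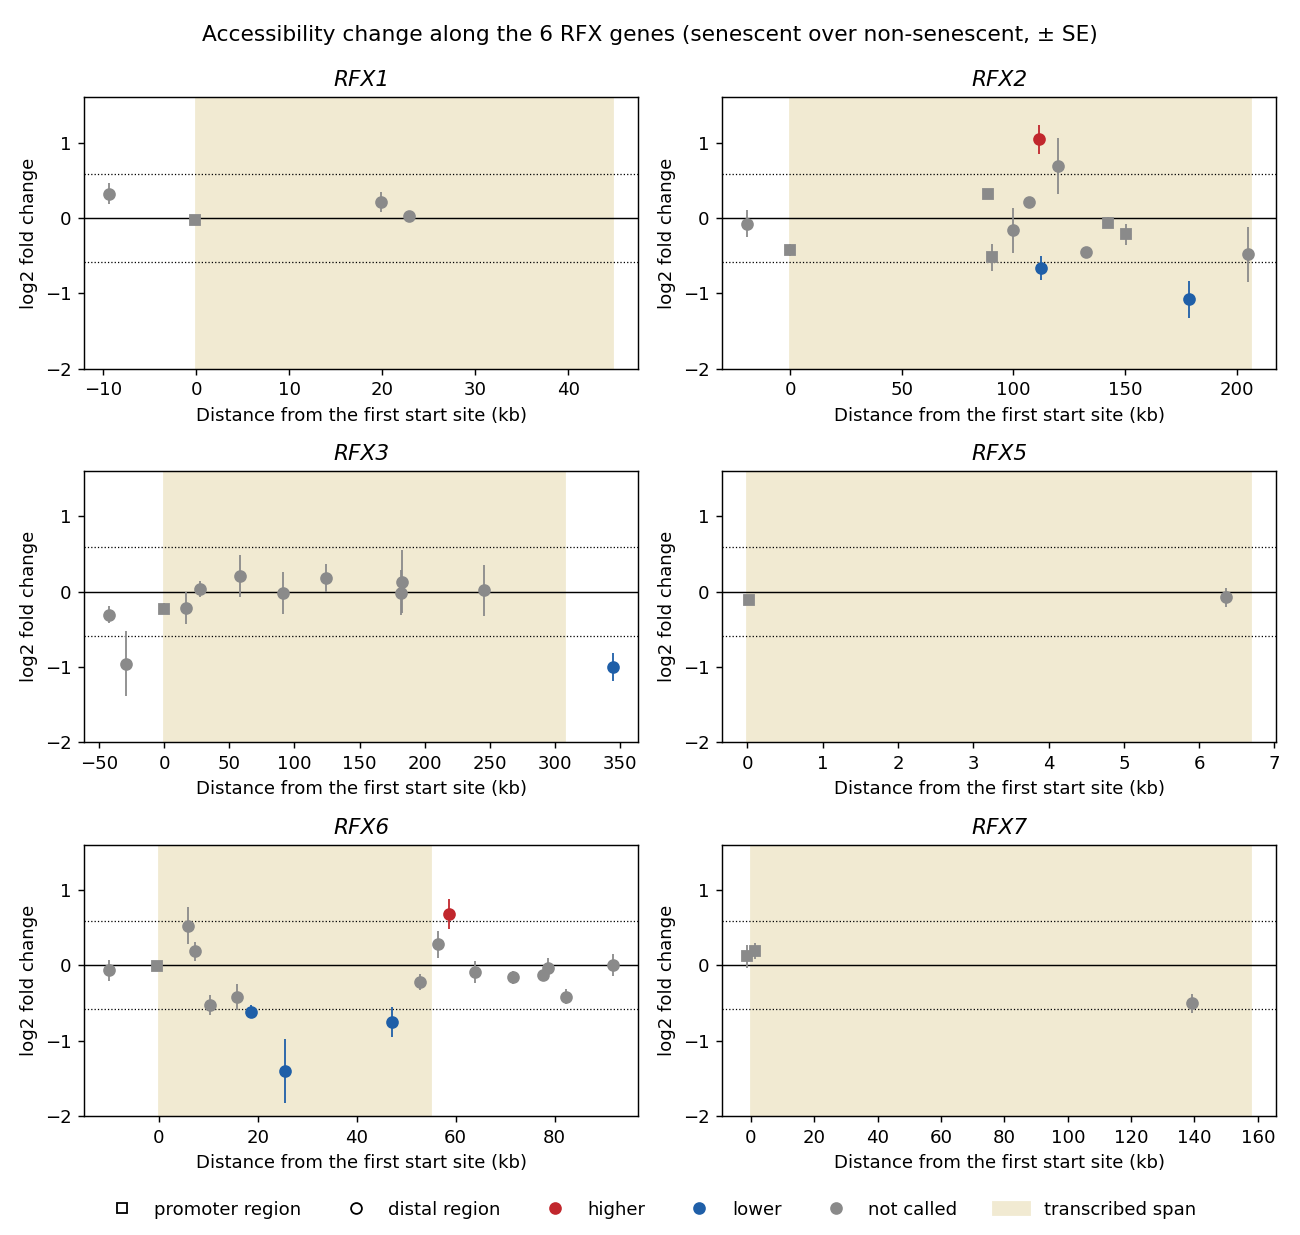
The log2 fold change of each of the 53 RFX regions (vertical axis, senescent over non-senescent, bars ± SE) against its distance from the first start site of the gene in kb; squares are promoter and circles distal regions, red is higher, blue lower and grey not called, shading marks the transcribed span and dotted lines 1.5-fold. The called falls of RFX6 lie between 18.6 and 47.2 kb inside the gene, and its called rise lies at 58.6 kb, past its end.

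RFX6 had the most distal regions, 17, of which 3 were lower and 1 was higher. From 10.3 to 52.8 kb after the start, 6 neighbouring regions in introns all had log2 fold changes below 0, from -1.40 to -0.22 with a median of -0.57. This stretch was picked by those values, so no concentration of falls can be read from it. Of its regions, 5 had an adjusted p-value under 0.05 in the DESeq2 test, and 3 also passed the fold limit. Over all distal regions, 18.3% were lower by the adjusted p-value alone and 10.6% by both limits. The strongest of the 3, chr6:116895556-116896215 at 18.6 kb, fell from a calculated mean of 734 to 478, a log2 fold change of -0.62 ± 0.08 (adjusted p = 6.9e-12). Its fold change was near the limit, and with the trend of the fold change on mean signal removed it was -0.49 and the call was lost. The region at 47.2 kb, chr6:116924257-116924641, fell from 126 to 75.0, a log2 fold change of -0.75 ± 0.20 (adjusted p = 0.000705). The weakest, chr6:116902737-116902945 at 25.6 kb, fell from 31.2 to 11.8, a log2 fold change of -1.40 ± 0.43 (adjusted p = 0.0038). This was the largest fall in log2 fold change among the RFX regions and also had one of the lowest mean signals, 21.5, with an interval from -2.24 to -0.56, so that it drops out where a mean signal of at least 50 is required.

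The regions before and after that stretch of RFX6 had other values. The intronic regions at 6.0 and 7.43 kb had log2 fold changes of 0.52 ± 0.25 and 0.18 ± 0.13 (adjusted p = 0.0721 and 0.245 in the DESeq2 test). Past the end of the gene, at 58.6 kb, the region chr6:116935558-116936170 rose from 77.6 to 124, a log2 fold change of 0.68 ± 0.19 (adjusted p = 0.00174). It was the only called RFX6 region that was higher. Once the GC trend was removed, its log2 fold change was 0.55 and the call was lost.

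Downstream of RFX6, the most accessible distal region of the gene, chr6:116954319-116955342 at 77.6 kb, had a mean signal of 1306 and a log2 fold change of -0.12 ± 0.06 (adjusted p = 0.094 in the DESeq2 test). It belonged to a run of 5 neighbouring regions, from 63.9 to 82.4 kb, that were all below 0, with log2 fold changes from -0.42 to -0.03. The last of these, at 82.4 kb with a mean signal of 455, was lower by the adjusted p-value alone, at -0.42 ± 0.10 (adjusted p = 0.000241). It passed the fold limit with the GC trend alone removed, as did the intronic region at 10.3 kb. With the trend on mean signal or both trends removed, neither was called. The interval of the region at 77.6 kb, -0.25 to -0.00, allowed no change over 1.5-fold in the deposited values. Its value was -0.37 with the GC trend alone removed, past that interval, and -0.03 with both trends removed. Falls by the adjusted p-value, which 18.3% of all distal regions showed, occurred at 5 intronic regions of RFX6 and at 1 downstream region. As deposited, neither the promoter nor the region at 77.6 kb passed it.

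RFX2 had 9 distal regions, of which 1 was higher and 2 were lower. The rise was at 111.5 kb, chr19:6087910-6088113, from a calculated mean of 66.2 to 136, a log2 fold change of 1.04 ± 0.19 (adjusted p = 8.1e-07 in the DESeq2 test). Only 412 bp away, chr19:6086949-6087498 fell from 180 to 114, a log2 fold change of -0.66 ± 0.16 (adjusted p = 0.000172). These are the neighbouring regions whose sequences are shown, and both lie in an intron of RFX2. The second fall, at 178.7 kb, chr19:6020535-6021197, was from 93.0 to 43.9, a log2 fold change of -1.08 ± 0.25 (adjusted p = 7.6e-05).

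The most accessible distal region of RFX2, chr19:6066037-6067623 at 132.7 kb, had a mean signal of 1828 and had the smallest adjusted p-value of the 53 regions. It went from a calculated mean of 2112 to 1545, a log2 fold change of -0.45 ± 0.05 (adjusted p = 5.3e-15 in the DESeq2 test). With a change of 1.37-fold and an interval from -0.56 to -0.34, it was lower but stayed within the fold limit. It passed that limit, at -0.59, only with the trend on GC content alone removed. With the trend on mean signal removed it was at -0.34, and with both trends removed at -0.43. A second strong region of the gene at 107.0 kb, with a mean signal of 1283, went the other way by 0.22 ± 0.06 (adjusted p = 0.00204). Rises and falls by the adjusted p-value thus occurred side by side in RFX2, at its promoters and in its introns.

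RFX3 had 11 distal regions, of which 1 was lower. That region, chr9:3180946-3181919, lay between genes 75.8 kb from the nearest RFX3 start site, past the end of RFX3, and fell from 152 to 75.9, a log2 fold change of -1.0 ± 0.19 (adjusted p = 9.6e-07 in the DESeq2 test). Its GC content was 65.6%, against a median of 41.2% over the RFX distal regions. The 8 intronic regions of RFX3 ran from -0.22 to 0.21, and 0 of them had an adjusted p-value under 0.05. The strongest, chr9:3498670-3499092, had a mean signal of 374 and a log2 fold change of 0.03 ± 0.11 (adjusted p = 0.829). The pair of regions upstream of the gene had log2 fold changes of -0.30 ± 0.12 and -0.96 ± 0.44 (adjusted p = 0.0256 and 0.0631), and the second of them had a mean signal of only 21.4. It was called lower when the trend on mean signal, on GC content or on both was removed.

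RFX1, RFX5 and RFX7 had 5 distal regions between them, and none was called. The strongest, in an RFX1 intron at chr19:13982965-13983830, had a mean signal of 2170 and a log2 fold change of 0.03 ± 0.05 (adjusted p = 0.665 in the DESeq2 test). The 2 others of RFX1 were at 0.32 ± 0.14 and 0.21 ± 0.13 (adjusted p = 0.0543 and 0.209). The single region of RFX5 was at -0.08 ± 0.13 (adjusted p = 0.666). The single region of RFX7, chr15:56105482-56106313, lay in an intron and went from 268 to 189, a log2 fold change of -0.50 ± 0.13 (adjusted p = 0.000408), short of the fold limit.

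**Figure D3:**
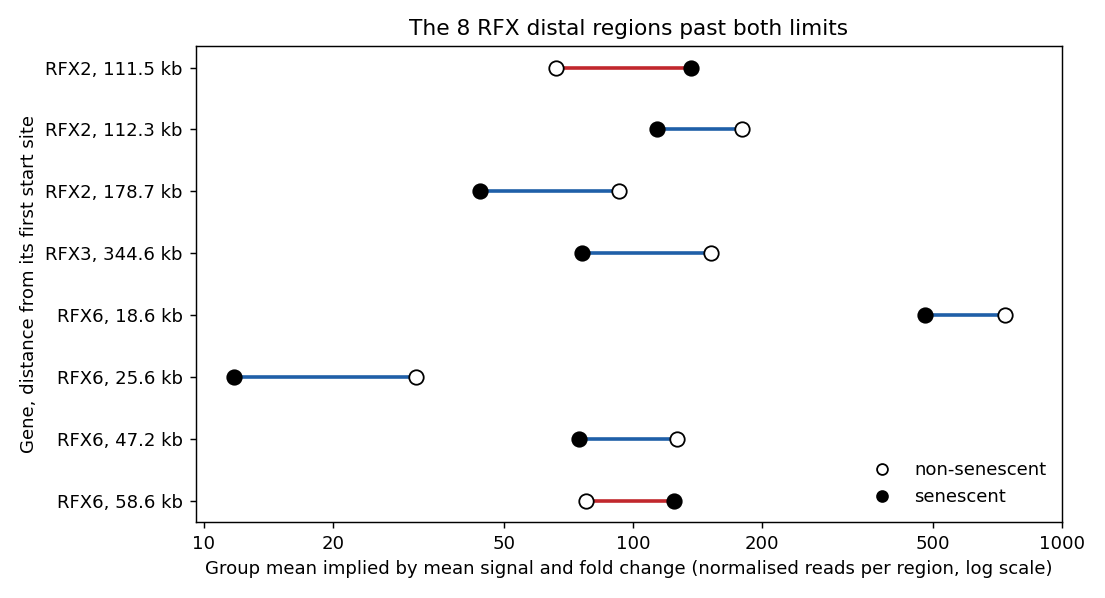
Group means calculated from the mean signal and the fold change of the 8 called RFX distal regions (horizontal axis, normalised reads per region on a log scale), named by gene and distance in kb from the first start site; open circles are non-senescent and filled circles senescent cells, and there are no error bars because no value per library was given. The filled circle lies to the right of the open one in 2 regions and to the left in 6.

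The sizes of these changes were set beside those of the whole table. The median of the mean signal was 884 for RFX promoters and 134 for RFX distal regions, compared with 506 and 76.8 over all regions of each kind. The called RFX regions had mean signals from 21.5 to 606. The 4 that changed more than 2-fold had mean signals from 21.5 to 114, and the SE of the RFX regions ran from 0.05 at the strongest to 0.44 at the weakest. The RFX regions just past the fold limit were the RFX6 region at 18.6 kb (1.53-fold) and the RFX2 region at 112.3 kb (1.58-fold). Just short of it were the RFX6 regions at 10.3 and 6.0 kb and the RFX2 promoter region at 90.6 kb (each 1.44-fold), of which that at 6.0 kb did not pass the adjusted p-value.

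**Figure D4:**
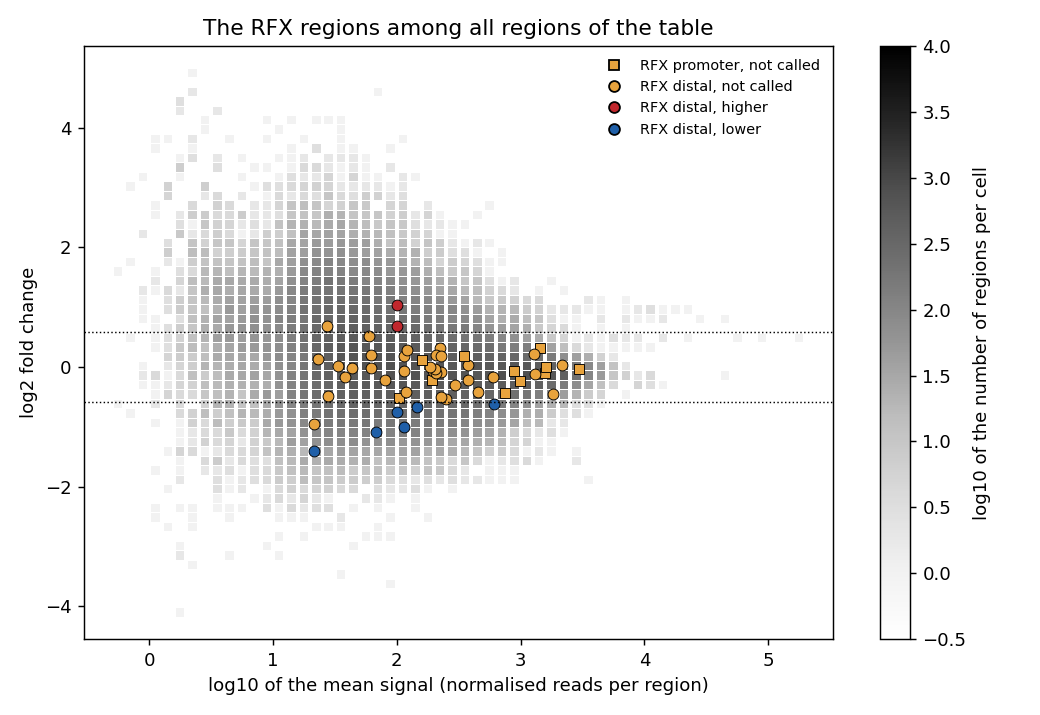
The log2 fold change (vertical axis, senescent over non-senescent) of the 53 RFX regions against the log10 of their mean signal (horizontal axis), over a grey density of all 108542 regions; squares are promoter and circles distal regions, and dotted lines mark 1.5-fold. The 2 called rises, in red, lie at mean signals near 101, and the 6 called falls, in blue, lie at 21.5 to 606.

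Motifs were searched on both strands in the 300 bp around the middle of each region. The X-box, as GTTNCC and GGNAAC set 2 bases apart with at most 1 mismatch in the 10 named letters, was in 0 of 11 promoter and 0 of 42 distal windows. Over all regions it was in 2.44% of promoter and 2.28% of distal windows. The RFX2 window at 132.7 kb, shown first among the sequences, held 3 copies of the arm GTTGCC. In 2 of them the arms face each other 3 bases apart, at chr19:6066805-6066819, which the spacing of the search did not count. This spacing was searched after the sequence had been read, and exact arms 3 bases apart were in 11 distal windows of the table (0.0124%), against 50 (0.0565%) with 2 bases and 66 (0.0746%) with 1 base. These exact arms, GTTGCC and GGCAAC, are stricter than those of the X-box search, which leave 1 letter of each arm free. The arm was in 3 of the 42 RFX distal windows (7.14%) and in 12.6% of all distal windows.

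The Y box, CCAAT, was in 5 of 11 RFX promoter windows (45.5%) and 15 of 42 distal windows (35.7%), against 24.2% and 30.1% over all windows of each kind. The promoter windows that held it were those of RFX1, RFX5 and RFX6 and the RFX2 regions at 88.7 and 150.6 kb. The forkhead (FOX) motif GTAAACA was in 10 of 42 distal windows (23.8%, against 9.43% of all), 5 of them near RFX6 and 4 near RFX3. The PDX1 core TAATTA was in 8 (19.0%, against 10.1%), 5 of them near RFX6. These motifs are rich in A and T, as were the RFX distal regions, whose median GC content of 41.2% was below the 44.8% of all distal regions, and the part of base composition was not tested. The AP-1 motif TGANTCA was in 7 (16.7%, against 11.1%), the MAF motif TGCTGAC in 0 (against 7.16%) and the E2F motif TTTCCCGC in 0 (against 0.353%). In the RefSeq promoter table of hg38, with 8 windows for RFX1, RFX3, RFX5 and RFX7, the X-box was in 0, compared with 2.70% of all 35116 windows.

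Since RFX proteins act at X-boxes, the regions of the whole table that hold one were described as well. Of 2021 distal regions with the X-box, 20.4% were higher and 8.16% were lower in senescent cells, and their median log2 fold change was 0.16. All distal regions had 18.1% higher, 10.6% lower and a median of 0.08. With the X-box read backwards, the 610 distal regions had 17.2% higher, 10.3% lower and a median of 0.03. In the 337 distal regions with no mismatch the shares were 17.8% and 9.79%, with a median of 0.16, so the share of higher distal regions did not grow with the quality of the match. Of the 491 promoter regions with an X-box, 5.09% were higher and 5.91% lower, with a median of -0.11. All promoter regions had 3.56% higher, 9.04% lower and a median of -0.13. With the X-box read backwards, the 126 promoter regions had 5.56% higher, 7.94% lower and a median of -0.09. In the 97 promoter regions with no mismatch the shares were 4.12% and 3.09%, with a median of -0.12. The share of lower promoter regions was thus smallest with no mismatch, where it rests on 3 regions, and the difference was not tested.

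Genes that work with or below the RFX factors were taken from lists. For the 7 partners of RFX5 on MHC class II promoters, 0 of 9 promoter regions were called (over all, 3.56% were higher and 9.04% lower), and 1 of 13 distal regions was higher and 2 were lower. Both other subunits of the complex, RFXANK and RFXAP, had log2 fold changes of -0.11 ± 0.06 and -0.10 ± 0.07 at their strongest promoter regions, like RFX5 itself. CIITA, the coactivator that switches MHC class II genes on, had a strongest promoter region with a mean signal of only 14.3. Among 11 MHC class II genes, 3 had a promoter region, and 2 of their 5 promoter regions were higher and 0 lower, against 3.56% and 9.04% over all promoter regions. The median log2 fold change of the 5 was -0.25. HLA-DMB, which helps to load peptides on class II molecules, was at 0.82 ± 0.34 (adjusted p = 0.0413 in the DESeq2 test) with a mean signal of 31.2. HLA-DMA, its partner chain, had a far stronger promoter region, with a mean signal of 793, and was lower by the adjusted p-value alone, at -0.25 ± 0.08 (adjusted p = 0.00843). HLA-DOA was at -0.25 ± 0.43 with a mean signal of 22.8. Of the 8 distal regions of this list, 0 were higher and 1 was lower, against 18.1% and 10.6% over all distal regions.

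The 30 cilium genes with known X-boxes, targets of RFX1, RFX2 and RFX3, all had a promoter region. Of their 41 promoter regions, 3 were higher (7.32%, against 3.56% of all) and 0 were lower (against 9.04% of all). No called region was the strongest of its gene. The median log2 fold change was -0.12 over the 41 regions, against -0.13 over all promoter regions of the table. Over the strongest region of each gene it was -0.13, for which no background was calculated. Of the 60 distal regions, 13 were higher (21.7%) and 7 were lower (11.7%). The list was thus close to the background at distal regions, 18.1% higher and 10.6% lower.

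For 12 islet genes downstream of RFX6 and RFX3, 2 of 33 promoter regions were higher (6.06%, against 3.56% of all) and 1 was lower (3.03%, against 9.04%). Both higher regions belonged to 1 gene. The largest called rise at a strongest promoter was at INS, insulin, with 1.11 ± 0.04 (adjusted p = 5.2e-189 in the DESeq2 test) and a mean signal of 7894, in a region that is also a promoter region of IGF2. The median over the strongest promoter regions was -0.09, and the subunit genes ABCC8 (potassium channel) and CACNA1A (calcium channel), chosen after their values were seen, were lower by the adjusted p-value alone, at -0.47 ± 0.09 and -0.38 ± 0.08 (adjusted p = 1.0e-06 and 4.0e-05). Of the 109 distal regions, 27 were higher (24.8%) and 9 were lower (8.26%), and their median log2 fold change was 0.01. For 14 p53-linked targets of RFX7, which include RFX5, 1 of 23 promoter regions was higher (4.35%, against 3.56% of all) and 0 were lower (against 9.04%). Of their 49 distal regions 14 were higher (28.6%) and 1 was lower (2.04%), with a median of 0.25. The share over all distal regions was 18.1% higher and 10.6% lower, and no test of the lists against it was made.

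Of the other members of the family in the list, RFX4 and RFX8, 0 of 4 promoter regions were higher and 2 were lower, against 9.04% lower over all promoter regions. Both lower regions belonged to RFX4, and RFX8 was not called at its strongest promoter region, at 0.10 ± 0.11. RFX4, a regulator of brain development, had the largest called fall, -1.45 ± 0.43 (adjusted p = 0.0026 in the DESeq2 test), at a strongest promoter region with a mean signal of only 23.2. Of the 8 distal regions of RFX4 and RFX8, 3 were lower and 0 were higher, against 10.6% lower and 18.1% higher over all distal regions. These 3 regions belonged to 1 gene.

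Genes with like values were sought for the RFX genes with at least 5 distal regions. Likeness was the distance between genes in the log2 fold change at the strongest promoter region and the median log2 fold change over distal regions, among 3694 genes. RFX2, at 0.32 and -0.17, was nearest to SBK1 (distance 0.00846), CTNND1 (0.0129) and PCBP3 (0.030). RFX3, at -0.23 and -0.01, was nearest to COMTD1 (0.0114), MRPS23 (0.0149) and ERCC6L2 (0.0170). RFX6, at -0.00 and -0.12, had ZNF778 (0.0104) and ATP2A2 (0.0120) among its nearest genes. These distances are smaller than the SE of the promoter values of the RFX genes, so the order of the nearest genes is not resolved.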

How the data were processed

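ATAC-seq libraries from 3 senescent and 3 non-senescent cultures of EndoC-βH3 cells were used, grouped by their labels. Per the methods, the authors used Trim Galore for trimming and Bowtie2 for alignment to hg38, dropped duplicates and mitochondrial reads, corrected positions for the transposase offset, found peaks in MACS2, and gave the counts in the merged peaks to DESeq2, steps that suit ATAC-seq. Versions are not given in the sources used here.

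The mean signal in the deposited table is the average normalised count over libraries. The log2 fold change and SE, the Wald score, and the p-value and adjusted p-value are the authors' own and were used as deposited, since 0 columns hold values per library. The score was checked to equal fold change over SE, and the p-values to follow from it with Benjamini-Hochberg adjustment over all 108542 regions. Whether fold changes were shrunken is not stated. Depth per library cannot be read from the table, and precision rests on the SE. The planned edgeR test needs counts and was not run.

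Start sites were from GENCODE 44. Calls required a fold change over 1.5 besides an adjusted p-value under 0.05. Intervals are 95% normal intervals from the SE. Calculated group means assume equal group sizes and unshrunken fold changes. Named were all promoter regions of each RFX gene, its strongest distal region, the called regions with the largest rises and falls, and for each list the largest called rise and fall at a strongest promoter. Other regions were named after their values were seen. The name of 1 like gene and the sequence of 1 region are not reported here. The RFX genes and all gene lists were chosen with earlier results of these data known. Alternatives were other limits, windows and start sites, and removal of trends on mean signal and GC content with a running median of 1000 regions on each side. Python 3.11.15, pandas 2.3.3 and scipy 1.17.1 were used.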

Additional observations from a re-analysis of the deposited data

How the results depend on the processing

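No paired analysis was possible because values per library were lacking, and for the same reason another count test or normalisation, a count filter and leaving out a library were not run. Without the fold change limit, 4 RFX regions were higher and 15 lower, 1 and 3 of them promoter regions and 3 and 12 distal. When the Wald test from the deposited values asked whether the change exceeds 1.5-fold, 0 RFX regions were higher and 0 lower, in the distal regions as well. Of the 8 regions called by the limits of the study, that test kept 0. The deposited test asks about any change, and at an unadjusted p-value under 0.05 it had 6 higher and 18 lower. Removal of the GC trend left 1 higher and 10 lower regions, and removal of both trends 1 higher and 6 lower, all distal. A distal limit of 50 kb cut the set to 42 regions, 31 of them distal, with 1 higher and 5 lower. Start sites of all gene types also left 42 and 31, since some distal regions were then nearer to another gene, with 1 higher and 4 lower. Shares over all regions were not calculated for these settings or for the test of 1.5-fold. These counts thus cannot be read as particular to the RFX genes. The other counts stayed within 1.5 times. Centring and the trends moved the median of all regions by less than 0.1, and they changed signs near 0. With the trend on mean signal removed, the promoters of RFX1, RFX5 and RFX6 and the RFX2 promoter region at 142.5 kb were at 0.067, 0.015, 0.12 and 0.049, and with both trends removed at 0.14, 0.044, 0.12 and 0.031. With the GC trend removed, RFX1 and RFX6 were at 0.11 and 0.029, and the strongest RFX3 distal region was at -0.22. With both trends removed, the RFX6 regions at 18.6 and 58.6 kb were not called, at -0.46 and 0.58. The cause was not tested. At the weak regions, with mean signals near 21, the SE limited what could be seen.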
